A study of Homo sapiens with 30 samples.

Results

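Transcript levels of 10 genes of the TGF-beta and BMP pathway (TGFB1, TGFB2, INHBA, BMP4, TGFBR1, TGFBR2, SMAD3, SMAD7, ID1 and ID3) were examined in 30 RNA-seq libraries of 5637 cells, a human bladder carcinoma cell line. The genes were taken by symbol, with earlier results of these data known, because RBPMS, the RNA-binding protein at the centre of the study, has been reported to bind SMAD proteins. They make up 10 of the 60612 genes listed in the RBPMS knockout data and 10 of the 56303 genes listed in the ANKRD10 overexpression data and in the ANKRD10 knockdown data. All 10 passed the filter on low counts in every comparison, and the lowest count of any of them in a library was 86.

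TGF-beta, activins and BMPs are secreted dimers of one protein family. Each binds a pair of type II and type I receptor kinases at the cell surface, and the type I receptor phosphorylates SMAD proteins. TGF-beta and activins act mainly through SMAD2 and SMAD3, BMPs mainly through SMAD1, SMAD5 and SMAD9. The phosphorylated SMADs enter the nucleus with SMAD4 and switch target genes on or off, among them their own inhibitors SMAD6 and SMAD7. In epithelial tumors the TGF-beta branch is known for growth arrest in early disease and for motility and epithelial-mesenchymal transition in later disease. ID1 and ID3, which block the DNA binding of basic helix-loop-helix factors, are classical targets of the BMP branch.

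The study asked what RBPMS and the ANKRD10 transcripts that it splices do to gene expression in bladder cancer cells. In the knockout experiment, RBPMS-edited cells (KO1 and KO2) were each paired by number with a control group (WT1 and WT2). In the overexpression experiment, cells with ANKRD10-1 or ANKRD10-2, the names given to a pair of ANKRD10 transcripts, were set against Vector, and in the knockdown experiment siANKRD10-1 and siANKRD10-2 were set against siNC. Each of the 10 groups had 3 libraries, all groups were of the same cell line in the same medium, and nothing states that the 3 came from separate cultures, so that the p-values measure the spread between these libraries. The labels call the controls of the knockouts WT, whereas the paper also calls them sgCtrl, and its discussion speaks of knockout populations expanded from single clones with long passaging. The paper places ANKRD10-1 overexpression and ANKRD10-2 knockdown in cells already lacking RBPMS, while the labels name only 5637 cells with 1 control group in each experiment. RBPMS stood at 3.57 to 6.28 CPM in these 18 libraries and was not called between ANKRD10-1 and Vector (log2 fold change -0.19 ± 0.13, adjusted p = 0.472) or between siANKRD10-2 and siNC (0.03 ± 0.14, adjusted p = 0.894). RBPMS was also not called between ANKRD10-2 and ANKRD10-1 (0.27 ± 0.15, adjusted p = 0.306) or between siANKRD10-2 and siANKRD10-1 (0.14 ± 0.13, adjusted p = 0.421). Levels cannot be set against the knockout data, so whether these cells lack RBPMS cannot be told from them.

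Total counts ranged from 44593108 to 69723937 per library in the knockout data, from 31736779 to 47493499 in the overexpression data and from 28511029 to 32784584 in the knockdown data. All 10 urothelial and epithelial markers (KRT5, KRT7, KRT8, KRT18, KRT19, EPCAM, CDH1, GATA3, TP63 and KRT13) averaged at least 1 CPM (counts scaled to the TMM-adjusted library size) in every group, although KRT13 fell from 80.7 CPM in WT1 to 12.9 CPM in KO1 and from 110 CPM in WT2 to 4.45 CPM in KO2. The summed level of the 10 ranged from 2900 to 5760 CPM over libraries, that of 6 fibroblast markers from 28.8 to 58.3 CPM, most of it COL1A1, that of 4 immune markers from 0.0359 to 23.8 CPM, most of it CD68 in the ANKRD10 data, and that of 4 endothelial markers from 1.36 to 3.4 CPM. RBPMS stood at 14.3 to 15.2 CPM in KO1 against 39 to 42.2 CPM in WT1 and at 18.9 to 21.3 CPM in KO2 against 42.4 to 44.2 CPM in WT2, so its transcript was lowered and still present. ANKRD10 was lower in the knockouts too, at -1.18 (log2) in KO1 (adjusted p = 6.55e-08) and -0.76 in KO2 (adjusted p = 3.98e-08). ANKRD10 rose by 0.67 (log2, adjusted p = 4.44e-09) with ANKRD10-1 and by 0.41 (adjusted p = 8.29e-05) with ANKRD10-2, and fell by 0.24 (adjusted p = 0.0159) with siANKRD10-1 and by 0.25 (adjusted p = 0.00122) with siANKRD10-2. These counts per gene do not separate the transcripts of ANKRD10. The 3 sets of counts were made separately, so no level was tested between them.

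Promoter sequence is shown for TGFB2, the member with the largest change, and for ID1 and ID3, the paired BMP targets. Each line gives the 250 bases before the transcription start in the RefSeq annotation of GRCh38.p14, 5′ to 3′ on the strand of the gene. Capitals mark CAGAC, the SMAD binding element, on either strand.

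TGFB2, chr1:218345086-218345335, plus strand: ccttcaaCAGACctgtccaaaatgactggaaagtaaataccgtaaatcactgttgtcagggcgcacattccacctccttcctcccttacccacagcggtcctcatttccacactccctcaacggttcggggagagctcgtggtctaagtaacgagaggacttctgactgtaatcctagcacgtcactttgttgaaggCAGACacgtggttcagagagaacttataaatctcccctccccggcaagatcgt

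ID3, chr1:23559502-23559751, minus strand: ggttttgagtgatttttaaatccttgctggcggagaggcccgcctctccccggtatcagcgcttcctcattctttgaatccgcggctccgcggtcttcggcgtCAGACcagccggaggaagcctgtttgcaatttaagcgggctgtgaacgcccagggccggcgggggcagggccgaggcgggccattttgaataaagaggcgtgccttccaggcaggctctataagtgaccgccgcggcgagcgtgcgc

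ID1, chr20:31605039-31605288, plus strand: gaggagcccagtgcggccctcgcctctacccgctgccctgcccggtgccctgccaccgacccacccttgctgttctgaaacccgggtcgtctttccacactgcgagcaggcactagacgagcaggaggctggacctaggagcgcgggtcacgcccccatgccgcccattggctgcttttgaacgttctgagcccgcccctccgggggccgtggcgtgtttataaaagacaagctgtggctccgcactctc

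The TGFB2 window held CAGAC at 2 places, beginning 243 and 53 bases before the start, and the ID3 window held it once, 147 bases before the start. The ID1 window held neither CAGAC nor the GC-rich SMAD site GGCGCC nor the palindrome GTCTAGAC, and this speaks only for these 250 bases. All 10 genes matched the RefSeq table, with 26 start sites in all. CAGAC lay before 12 of the 26 starts and before at least 1 start of 6 of the genes, GGCGCC before 3 starts, and GTCTAGAC before none of the 26. Over the 35116 starts of all genes in the table, CAGAC was found before 38% of them, GGCGCC before 16.4% and GTCTAGAC before 0.182%, so a CAGAC match is common in any set of promoters. The TGFB2 window ends 900 bases before the start of the gene in the annotation of the counts, since the RefSeq start lies farther upstream. The ID3 window lies wholly inside ID3 in that annotation (23557918 to 23559794), so its CAGAC match is within the gene there. The ID1 window ends just inside ID1, which starts at 31605283 there.

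BMP4 and ID3 fell and SMAD3 and TGFB2 rose in both RBPMS-edited lines, the rise of TGFB2 in KO1 being small and dependent on single libraries. TGFB2 rose 4.27-fold in KO2 and 1.15-fold in KO1. INHBA moved in opposite directions, down in KO1 and up in KO2, ID1 fell in KO2 and was at 0.01 in KO1, while TGFB1 and SMAD7 passed the test in neither. A gene was called when its adjusted p (edgeR quasi-likelihood test, Benjamini-Hochberg adjustment over all genes tested) was under 0.05. In KO1 against WT1, 2 members were called higher, where 17.9% of all 17865 genes tested were, and 3 were called lower, where 18.2% were. In KO2 against WT2, 4 members were called higher, with 19.3% of 18267 genes, and 4 lower, with 19.2%. The median log2 fold change of the 10 was -0.05 in KO1, beside 0 over all genes, and 0.03 in KO2, beside -0.02. In bulk RNA, fewer cells expressing a gene and less RNA per cell cannot be told apart.

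**Figure D1:**
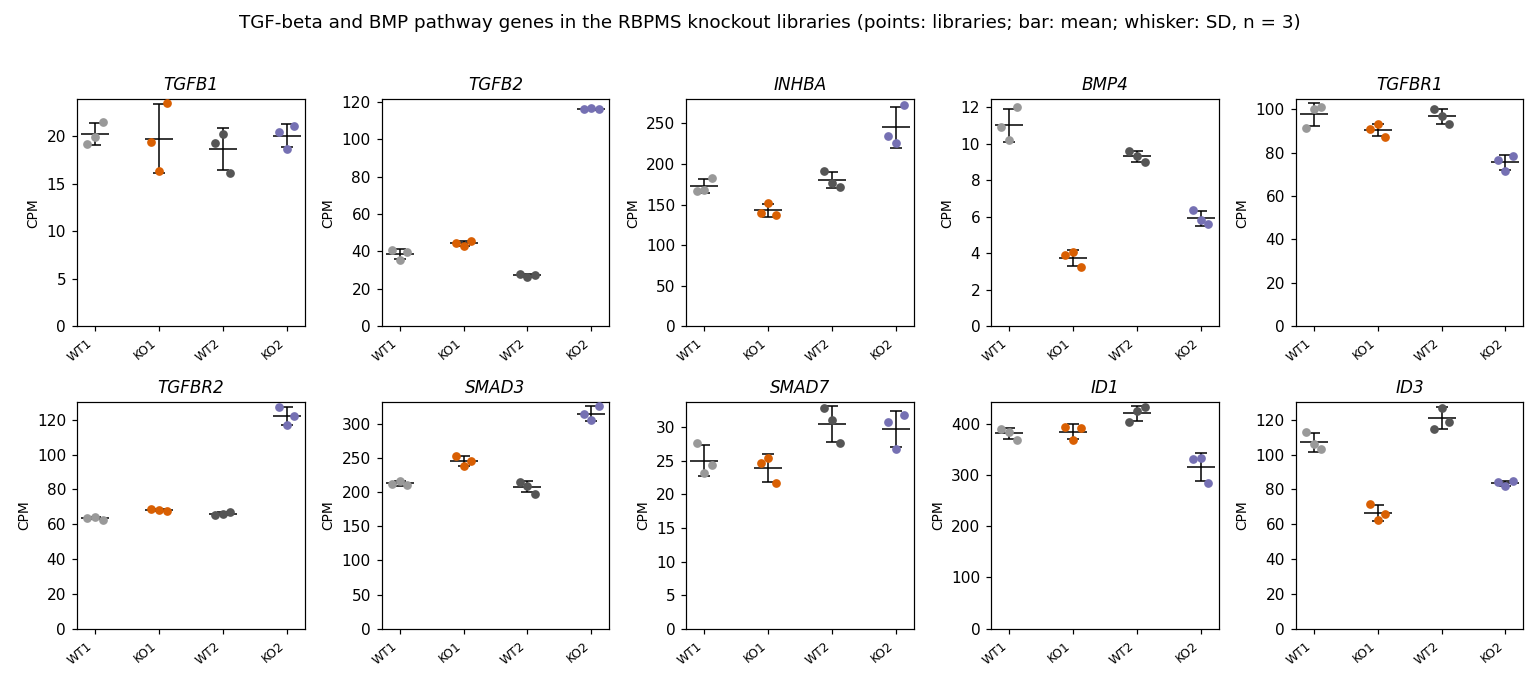
CPM (y axis, from 0) of each of the 10 genes in the 12 libraries of the knockout experiment, by group on the x axis, with points for libraries and bars and whiskers for the mean and SD of 3. TGFB2 and TGFBR2 stand far above every other group in KO2, and BMP4 and ID3 lie below their controls in both knockouts.

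Among the ligands, TGFB2 (chromosome 1, 218346235 to 218444619, plus strand, GRCh38), one of the TGF-beta isoforms, had 116, 117 and 116 CPM in KO2 against 27.8, 26.3 and 27.5 CPM in WT2. In KO1 it had 44.4, 43.1 and 45.4 CPM against 40.7, 35.5 and 39.5 CPM in WT1. The KO2 libraries lay far above all others, whereas the KO1 libraries lay only just above those of WT1. The log2 fold change was 2.09 ± 0.04 (SE, adjusted p = 2.75e-11) in KO2 and 0.20 ± 0.07 (adjusted p = 0.0366) in KO1. The KO1 call was lost without KO1 replicate 1 (log2 fold change 0.20, adjusted p = 0.0881), KO1 replicate 3 (0.18, 0.0974), WT1 replicate 2 (0.14, 0.158) or WT1 replicate 3 (0.22, 0.0658), and without the filter on low counts (0.19, 0.0711). TGFB2 also differed between the control groups, at 27.2 ± 0.78 CPM in WT2 and 38.6 ± 2.73 CPM in WT1 (SD, n = 3), a log2 fold change of -0.50 (adjusted p = 0.00253). In WT2 against WT1 0.578% of 18335 genes were called higher and 0.654% lower, and TGFB2 was the 1 member called by edgeR. DESeq2 called SMAD7 (0.28, adjusted p = 0.0362), ID1 (0.14, 0.0141) and ID3 (0.17, 0.0427) as well. In the annotation of the same genome build, 1371 of the 5151 exon bases of TGFB2 are shared with TGFB2-OT1 on the same strand, which was counted at 0.0771 to 1.03 CPM in the knockout data, at 5.41 to 11.9 CPM in the overexpression data and at 6.4 to 14.3 CPM in the knockdown data. Reads from the shared bases cannot be told apart.

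BMP4 (chromosome 14, 53949736 to 53958761, minus strand), a BMP ligand, was the member that fell most. It had 3.91, 4.06 and 3.22 CPM in KO1 against 10.9, 10.2 and 12 CPM in WT1. In KO2 it had 6.36, 5.8 and 5.58 CPM against 9.59, 9.33 and 8.98 CPM in WT2. Neither knockout overlapped its control, and the KO1 libraries lay below those of KO2. It fell to 0.337 of the control in KO1 (log2 fold change -1.57 ± 0.14, adjusted p = 1.1e-05) and to 0.634 in KO2 (-0.66 ± 0.12, adjusted p = 0.000689).

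INHBA (chromosome 7, 41667168 to 41705834, minus strand) encodes the subunit that forms activin A. Its CPM were 140, 152 and 137 in KO1 and 167, 168 and 183 in WT1, a log2 fold change of -0.28 ± 0.06 (adjusted p = 0.00304). In KO2 they were 234, 226 and 273, against 191, 177 and 172 in WT2, a log2 fold change of 0.43 ± 0.06 (adjusted p = 0.000166). The groups did not overlap in either comparison, and the direction was opposite. TGFB1 (chromosome 19, 41301587 to 41353911, minus strand), the most widely expressed TGF-beta, lay between 16.1 and 23.5 CPM in all 12 libraries, with overlapping groups, at log2 fold changes of -0.03 ± 0.12 in KO1 (adjusted p = 0.855) and 0.11 ± 0.09 in KO2 (adjusted p = 0.408). On the opposite strand 215 of its 3238 exon bases are shared with HNRNPUL1, and whether the counting used strand is not given in the sources used here.

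The receptors moved in opposite directions in KO2. TGFBR2 (chromosome 3, 30606502 to 30694142, plus strand), the type II receptor that binds TGF-beta, had 127, 117 and 122 CPM in KO2 against 65.2, 66.1 and 66.8 CPM in WT2, a 1.85-fold rise (log2 fold change 0.88 ± 0.04, adjusted p = 1.93e-08). KO1 lay at 68.9, 68.2 and 67.6 CPM and WT1 at 63.8, 64 and 62.7 CPM. The KO1 groups did not overlap either, but the log2 fold change of 0.10 ± 0.05 did not pass the test (adjusted p = 0.128). TGFBR1 (chromosome 9, 99104038 to 99154192, plus strand), the type I receptor kinase, fell in KO2 to 76.5, 71.7 and 78.6 CPM from 100, 96.8 and 93.4 CPM in WT2 (log2 fold change -0.36 ± 0.05, adjusted p = 7.44e-05). In KO1, at 90.9, 93.1 and 87.2 CPM against 91.5, 100 and 101 CPM, the groups overlapped and the value was -0.11 ± 0.06 (adjusted p = 0.136).

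SMAD3 (chromosome 15, 67063763 to 67195195, plus strand), which carries the TGF-beta and activin signal, rose in both knockouts. It had 253, 239 and 246 CPM in KO1 against 212, 217 and 210 CPM in WT1, a log2 fold change of 0.20 ± 0.04 (adjusted p = 0.00379). In KO2 it had 314, 305 and 326 CPM against 215, 209 and 198 CPM in WT2, a log2 fold change of 0.60 ± 0.04 (adjusted p = 2.23e-07). All 6 knockout libraries lay above all 6 control libraries. On the opposite strand 182 of its 9113 exon bases are shared with AC087482.1. SMAD7 (chromosome 18, 48919853 to 48950711, minus strand), an inhibitory SMAD that TGF-beta signalling itself induces, lay between 21.6 and 32.8 CPM with overlapping groups, at -0.07 ± 0.09 in KO1 (adjusted p = 0.61) and -0.04 ± 0.08 in KO2 (adjusted p = 0.738).

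ID3 (chromosome 1, 23557918 to 23559794, minus strand) had 71.4, 62.2 and 65.7 CPM in KO1 against 113, 106 and 103 CPM in WT1. In KO2 it had 84.1, 81.8 and 84.6 CPM against 115, 127 and 119 CPM in WT2. Every knockout library lay below every control library. The fall was to 0.619 of the control in KO1 (log2 fold change -0.69 ± 0.06, adjusted p = 1.23e-05) and to 0.691 in KO2 (-0.53 ± 0.05, adjusted p = 1.97e-06). ID1 (chromosome 20, 31605283 to 31606515, plus strand) had 331, 332 and 285 CPM in KO2 against 403, 425 and 432 CPM in WT2, without overlap (log2 fold change -0.41 ± 0.06, adjusted p = 8.91e-05). In KO1, at 394, 367 and 391 CPM against 390, 384 and 368 CPM in WT1, the groups overlapped and the value was 0.01 ± 0.05 (adjusted p = 0.886). ID3 was thus lower in both lines and ID1 passed the test in KO2 alone, and the difference between the lines was tested for each gene.

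That test compared the change in KO1 with the change in KO2 over all 12 libraries. The difference was higher for 11.2% and lower for 12.1% of the 19189 genes tested. It was called for 7 of the 10 members, higher for 2 and lower for 5. TGFB2 differed by -1.90 ± 0.08 (log2, KO1 minus KO2, adjusted p = 6.18e-11), BMP4 by -0.91 ± 0.17 (adjusted p = 0.000807) and TGFBR2 by -0.78 ± 0.06 (adjusted p = 1.11e-07). INHBA differed by -0.71 ± 0.09 (adjusted p = 3.83e-05) and SMAD3 by -0.40 ± 0.06 (adjusted p = 1e-04). ID1 differed by 0.42 ± 0.08 (adjusted p = 0.000689), whereas the difference for ID3 was -0.16 ± 0.08 (adjusted p = 0.172). The smallest called difference, that of TGFBR1 at 0.24 ± 0.07 (adjusted p = 0.0256), lost its call without KO1 replicate 2 (0.22, adjusted p = 0.0517), WT1 replicate 1 (0.19, 0.0719), KO2 replicate 2 (0.21, 0.0726) or WT2 replicate 1 (0.22, 0.0667).

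**Figure D2:**
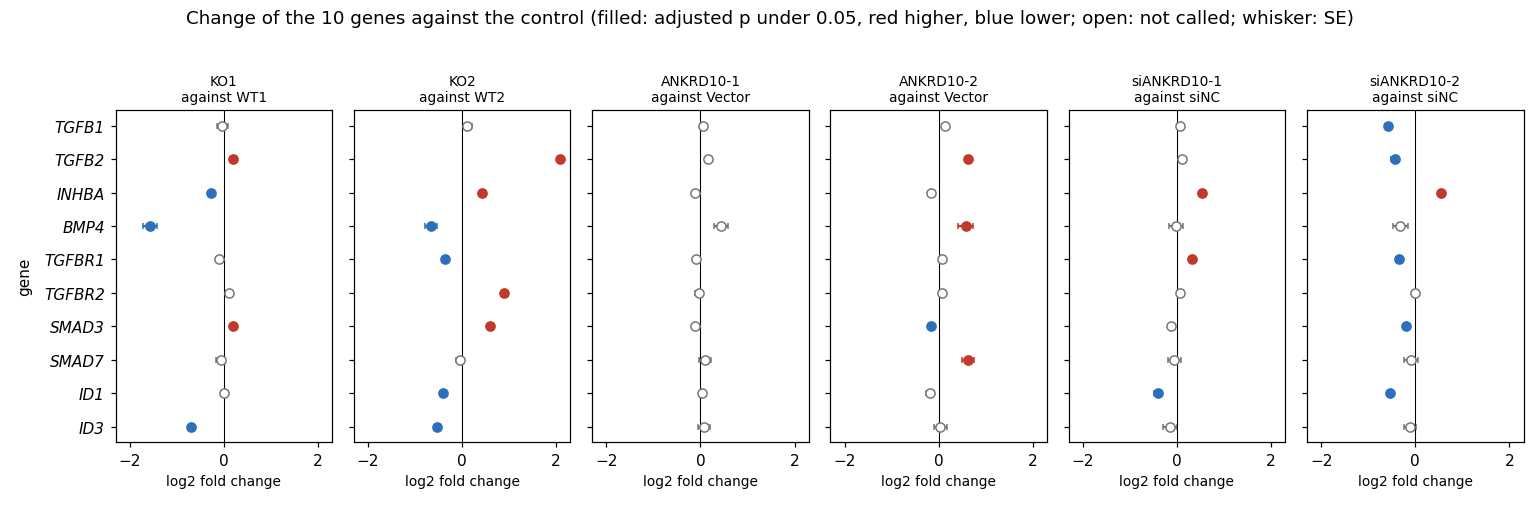
Log2 fold change (x axis) of the 10 genes (y axis) in each comparison with a control, with whiskers for the SE. Filled points had an adjusted p under 0.05 (red higher, blue lower) and open points did not. TGFB2 in KO2 (2.09) and BMP4 in KO1 (-1.57) are the farthest from 0, and no point is filled for ANKRD10-1 overexpression.

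The surroundings of the genes were examined because an edited line can carry changes of whole chromosomes. In KO2 the median of the 61 genes tested within 5 Mb of TGFBR1 was -0.50 (log2 fold change) and that of the 723 genes of chromosome 9 was -0.41, beside -0.36 for TGFBR1 itself. The part of the region in the fall of TGFBR1 was not tested. In KO1 the 236 genes around TGFB1 had a median of -0.54 and the 1196 genes of chromosome 19 of -0.38, while TGFB1 was at -0.03. For the other 8 members the median of the surrounding genes lay between -0.11 (SMAD7, KO2) and 0.14 (INHBA, KO2) in both knockouts. Around TGFB2 it was 0.01 in KO2 and -0.01 in KO1, and around BMP4 0.02 and 0.01. The surroundings of the other pathway genes named below were not examined, so the part of a region in their changes was not tested.

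The wider pathway was read from 9 lists with 87 further genes. In KO1, 70 of the 87 were tested, 14 were called higher and 29 lower, where 17.9% and 18.2% of all genes were, with a median log2 fold change of -0.18. In KO2, 71 were tested, 25 were higher and 20 lower, where 19.3% and 19.2% of all genes were, with a median of 0.01. Of the 12 BMP response genes listed (members included), 7 were lower and 1 higher in KO1, with a median of -0.71. In KO2 8 were lower and 1 higher, with a median of -0.47. By the test of the difference between the lines 5 of the 12 differed. The change in KO1 relative to that in KO2 was higher for 2 and lower for 3, where it was for 11.2% and 12.1% of all genes. The 6 that were lower in both, of 7 in KO1 and 8 in KO2, were ID2, ID3, ID4, SMAD6, SMAD9 and BAMBI. ID2, a relative of ID1 and ID3, had 3.02, 4.72 and 4.38 CPM in KO1 against 14.4, 13.2 and 13 CPM in WT1 (log2 fold change -1.76, adjusted p = 1.39e-05), and its KO2 value was -1.06. SMAD6, the inhibitory SMAD of the BMP branch, was at -0.73 in both lines (adjusted p = 1.21e-05 and 1.05e-06). ATOH8, a helix-loop-helix factor, went opposite ways, at 3.7, 3.1 and 4.49 CPM in KO1 against 17.7, 14.3 and 13.1 CPM in WT1 (0.251 of the control, adjusted p = 5.91e-06) and at 19.2, 20.4 and 22 CPM in KO2 against 14.1, 13.1 and 14 CPM in WT2 (log2 fold change 0.58, adjusted p = 0.000115). HEY1, a transcriptional repressor, also did, at 0.30 in KO1 (adjusted p = 0.0441) and -1.63 in KO2 (adjusted p = 6.98e-08). HEY1 also differed between the controls, by 0.60 in WT2 against WT1 (adjusted p = 0.00889).

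Among the antagonists that trap ligands outside the cell, the 2 called higher in KO1 were also higher in KO2, where 4 of the 7 tested were and none was lower. In KO1 1 of the 6 tested was lower, FSTL3, a follistatin relative (log2 fold change -0.62, adjusted p = 0.000379). NOG, which binds BMPs, rose from 0.443 to 1.67 CPM in KO1 (log2 fold change 1.91, adjusted p = 0.000529). FST, which binds activins, rose by 1.28 in KO2 (adjusted p = 3.98e-08) and by 0.40 in KO1 (adjusted p = 0.00309). The BMP ligand BMP3 was lower in both lines, at -1.63 in KO1 (adjusted p = 0.0206) and -1.46 in KO2 (adjusted p = 0.00413), at a low mean of 1.01 CPM over the libraries compared in KO1. The KO1 call of BMP3 was lost without WT1 replicate 1 (-1.54, adjusted p = 0.0671) or WT1 replicate 3 (-1.58, 0.0608). Of the 11 BMP ligands 7 were tested and 3 were lower and 1 higher in each line. Over all genes 17.9% were higher and 18.2% lower in KO1, and 19.3% and 19.2% in KO2. GDF15, a distant ligand of the family, rose by 1.44 in KO1 (adjusted p = 0.000177) and 1.31 in KO2 (adjusted p = 0.000129).

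Of the TGF-beta response genes, 5 of 12 differed between the lines by the test of the difference, all lower in KO1 relative to KO2. By that test 12.1% of all genes were lower and 11.2% higher. In KO1 2 of the 12 listed were higher and 6 lower (median -0.19), and in KO2 6 were higher and 2 lower (median 0.25). Over all genes 17.9% were higher and 18.2% lower in KO1, and 19.3% and 19.2% in KO2. TGFBI was higher in both, and CDKN2B and JUNB were lower in both. TGFBI, an extracellular matrix protein named for its induction by TGF-beta, rose by 0.92 in KO1 (adjusted p = 8.59e-07). CDKN2B, the cell cycle inhibitor p15, fell from 35.1, 35.9 and 33.8 CPM in WT1 to 9.31, 11.6 and 9.1 CPM in KO1 (-1.81, adjusted p = 3.12e-07) and by 1.40 in KO2 (adjusted p = 3.43e-07). FN1, fibronectin, had 4510, 4440 and 4420 CPM in KO2 against 1590, 1460 and 1410 CPM in WT2 (1.58, adjusted p = 4.06e-11) and was lower in KO1 (-0.53, adjusted p = 7.84e-06). FN1 and FST were both lower in WT2 than in WT1, by -0.32 (adjusted p = 0.00543) and -0.46 (adjusted p = 0.0142). Among receptors and coreceptors 6 were lower and 2 higher in KO1 and 7 lower and 2 higher in KO2, with TGFBR3, the coreceptor betaglycan, at -1.64 in KO2 (adjusted p = 2.84e-05). LTBP3, which stores latent TGF-beta, rose by 0.89 in KO1 (adjusted p = 1.93e-05), and INHBB, the activin B subunit, by 1.34 in KO2 (adjusted p = 0.000333). Of the SMADs, 3 were lower and 1 higher in KO1, and 4 lower and 2 higher in KO2. The lists share genes, so their counts are not separate. SMAD6 and SMAD9 of the SMADs and BAMBI of the receptors and coreceptors are also counted among the BMP response genes lower in both lines.

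With ANKRD10-2 overexpression, TGFB2, SMAD7 and BMP4 were higher and SMAD3 was lower, while ANKRD10-1 moved no member past the threshold. In ANKRD10-2 against Vector 3 members were called higher, with 10.7% of 20177 genes tested, and 1 lower, with 9.25%. In ANKRD10-1 against Vector 0 of the 10 were called by edgeR, with 3.5% of 20457 genes higher and 2.81% lower. An unadjusted p under 0.05 was found for 4 members. The share of all genes under that unadjusted threshold was not counted, so the 4 cannot be read as a result about the members. DESeq2 also called 0, and without the filter on low counts 1 (BMP4) was called. Both comparisons share the Vector libraries. The median log2 fold change of the members was 0.08 with ANKRD10-2 and 0.04 with ANKRD10-1, beside -0.01 and 0 over all genes.

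TGFB2 had 46.3, 48.9 and 45.3 CPM with ANKRD10-2, 33.6, 33.7 and 35.6 CPM with ANKRD10-1 and 30.5, 31.5 and 29.8 CPM with Vector. The ANKRD10-2 libraries lay well above both other groups. The rise with ANKRD10-2 came to 0.62 ± 0.06 on the log2 scale (adjusted p = 7.27e-06), and the value for ANKRD10-1 was 0.17 ± 0.06 (adjusted p = 0.103). SMAD7 had 7.49, 8.32 and 8.16 CPM with ANKRD10-2, 5.3, 6.1 and 5.38 CPM with ANKRD10-1 and 4.34, 5.18 and 6.07 CPM with Vector, again with ANKRD10-2 alone above all others (0.62 ± 0.13, adjusted p = 0.00365). With ANKRD10-1 SMAD7 was at 0.10 ± 0.13 (adjusted p = 0.713).

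BMP4 had 6.07, 5.44 and 6.65 CPM with ANKRD10-2, 5.85, 5.68 and 5.09 CPM with ANKRD10-1 and 3.54, 3.44 and 5.23 CPM with Vector. The third Vector library stood above the other 2 and close to the treated ones. The log2 fold change was 0.57 ± 0.16 with ANKRD10-2 (adjusted p = 0.0222) and 0.44 ± 0.15 with ANKRD10-1 (adjusted p = 0.0908). The ANKRD10-2 call was lost without ANKRD10-2 replicate 1 (0.57, adjusted p = 0.0524) or 3 (0.50, 0.0847) or Vector replicate 1 (0.47, 0.0988) or 2 (0.46, 0.0955), and without Vector replicate 3 BMP4 was called with ANKRD10-1 as well (0.67, adjusted p = 0.00201). SMAD3 was lower with ANKRD10-2, at 243, 257 and 264 CPM against 288, 282 and 283 CPM with Vector (-0.16 ± 0.05, adjusted p = 0.027), and this call was lost when any library except ANKRD10-2 replicate 3 was left out, with values from -0.18 to -0.12. With ANKRD10-1 it stood at 259, 262 and 266 CPM (-0.12 ± 0.04, adjusted p = 0.11).

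The remaining members passed the test with neither transcript. INHBA, at 302, 312 and 304 CPM with Vector, had 245, 283 and 288 CPM with ANKRD10-2 (-0.17 ± 0.06, adjusted p = 0.0559) and 281, 287 and 281 CPM with ANKRD10-1 (-0.11 ± 0.04, adjusted p = 0.118). Without ANKRD10-2 replicate 3 INHBA was called lower (-0.21, adjusted p = 0.0429), as it was with DESeq2 (-0.17, 0.0363), and without ANKRD10-2 replicate 1 ID1 was (-0.26, 0.0482). ID1 lay between 36.1 and 48.7 CPM and ID3 between 3.11 and 4.03 CPM over the 9 libraries, with overlapping groups. The ID1 log2 fold changes were -0.18 ± 0.09 with ANKRD10-2 (adjusted p = 0.156) and 0.03 ± 0.07 with ANKRD10-1 (adjusted p = 0.864), and those of ID3 0.03 ± 0.14 and 0.07 ± 0.13. TGFB1 was at 0.14 and 0.05, TGFBR1 at 0.07 and -0.09 and TGFBR2 at 0.08 and -0.03, with overlapping groups in each case.

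In the direct comparison of ANKRD10-2 with ANKRD10-1, SMAD7 (0.51 ± 0.11, adjusted p = 0.00557) and TGFB2 (0.45 ± 0.06, adjusted p = 7.25e-05) were higher. These were 2 members higher, where 4.15% of 20052 genes were, and 0 lower, where 3.1% were. ANKRD10 itself was lower with ANKRD10-2 (-0.27, adjusted p = 0.00355), as counted over all transcripts of the gene. BMP4 did not differ past the threshold (0.13 ± 0.12, adjusted p = 0.576).

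Beyond the members, ANKRD10-2 overexpression raised 12 and lowered 10 of 74 pathway genes tested, and ANKRD10-1 overexpression raised 2 and lowered 3 of 75. Of all genes, 10.7% were higher and 9.25% lower with ANKRD10-2, and 3.5% and 2.81% with ANKRD10-1. ID4, a further ID gene, had 5.08, 4.24 and 4.23 CPM with ANKRD10-2, 3.08, 3.31 and 3.56 CPM with ANKRD10-1 and 2.02, 2.55 and 2.31 CPM with Vector, with no overlap among the 3 groups. It rose by 0.98 with ANKRD10-2 (adjusted p = 0.000451) and by 0.53 with ANKRD10-1 (adjusted p = 0.0429), and the second call was lost when any 1 of the 6 libraries was left out (0.45 to 0.61). THBS1, which activates latent TGF-beta, had 202, 199 and 207 CPM with ANKRD10-2 against 121, 109 and 108 CPM with Vector (0.85, adjusted p = 7.39e-08). INHBB (0.56, adjusted p = 0.00218) and NOG (0.54, adjusted p = 0.0145) were higher as well. SMAD6 (-0.70, adjusted p = 0.000616), GDF11 (-0.54, adjusted p = 0.000162), LTBP2 (-0.51, adjusted p = 0.00194) and GDF7 (-0.61, adjusted p = 0.0312) were lower. NOG lost its call without ANKRD10-2 replicate 1 (0.45, adjusted p = 0.0609) or Vector replicate 1 (0.42, 0.0718), and GDF7 without any library but ANKRD10-2 replicate 2 (-0.79 to -0.51) and with all groups in one fit (-0.61, 0.0699). With ANKRD10-1, GDF15 was higher (0.43, adjusted p = 0.0182) and CCN2 (-0.34, adjusted p = 0.0229) and LTBP3 (-0.20, adjusted p = 0.0282) were lower. Each of these calls was lost when single libraries were left out: GDF15 without ANKRD10-1 replicate 1 or 3 or Vector replicate 1 (0.37 to 0.49 over all 6), CCN2 without ANKRD10-1 replicate 1 or 2 or Vector replicate 3 (-0.39 to -0.26), and LTBP3 without any library but ANKRD10-1 replicate 3 (-0.22 to -0.18). Of the antagonists 4 of the 8 tested rose with ANKRD10-2 and none with ANKRD10-1.

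**Figure D3:**
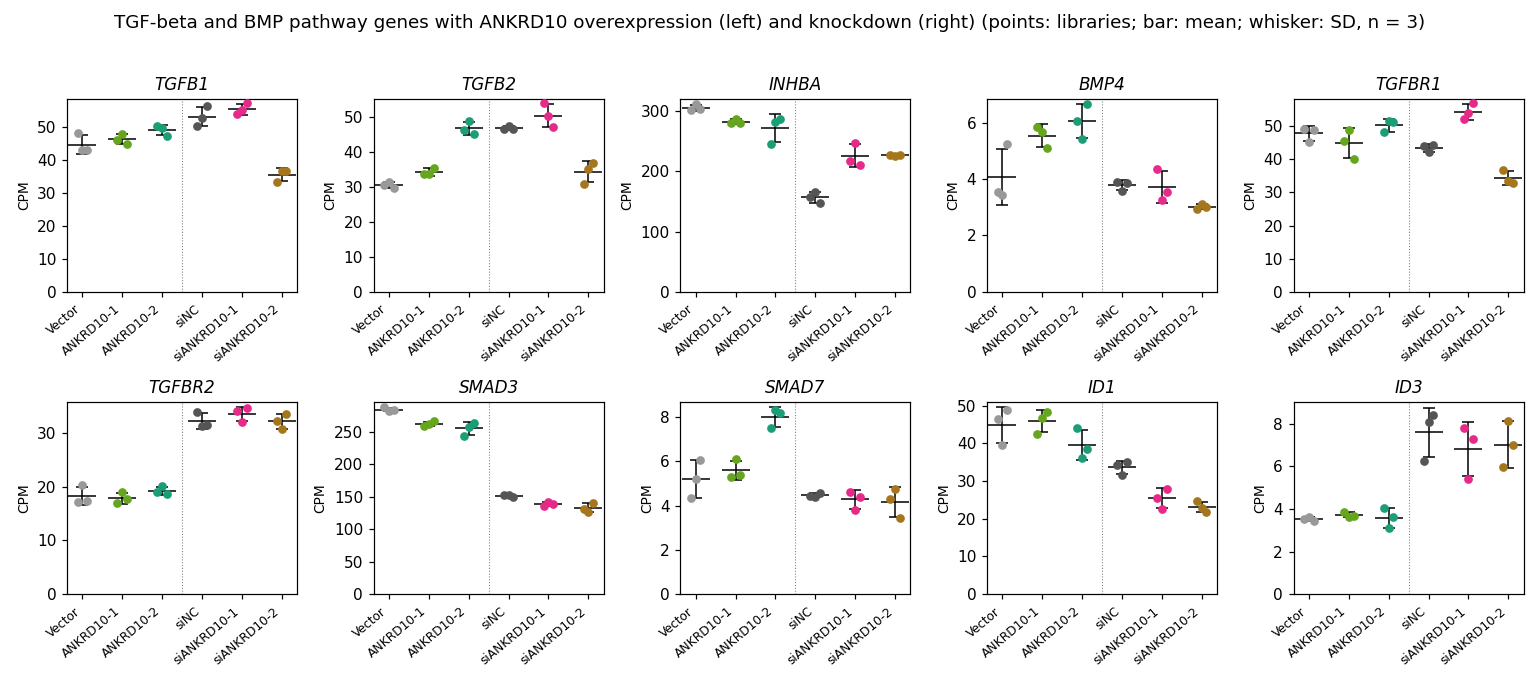
CPM (y axis, from 0) of each of the 10 genes in the 9 overexpression libraries (left of the dotted line) and the 9 knockdown libraries (right), by group, with points for libraries and bars and whiskers for the mean and SD of 3. TGFB2 is highest with ANKRD10-2 on the left (46.8 CPM) and lowest with siANKRD10-2 on the right (34.4 CPM), and levels on either side of the line come from separately made counts.

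Knockdown with siANKRD10-2 lowered ligands, a receptor, SMAD3 and ID1 and raised INHBA, and knockdown with siANKRD10-1 raised INHBA and TGFBR1 and lowered ID1. In siANKRD10-2 against siNC 1 member was called higher, with 17.6% of 18924 genes tested, and 5 lower, with 18.7%. In siANKRD10-1 against siNC 2 were higher, with 5.08% of 18785 genes, and 1 lower, with 5.52%. The median log2 fold change of the members was -0.25 with siANKRD10-2 and 0.02 with siANKRD10-1, beside 0 over all genes in both. The comparisons share the siNC libraries.

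TGFB1 had 33.2, 36.5 and 36.7 CPM with siANKRD10-2, 54, 55 and 57.2 CPM with siANKRD10-1 and 50.3, 52.7 and 56.2 CPM with siNC. The siANKRD10-2 libraries lay below all others, and this was the only one of the 6 comparisons with a control in which TGFB1 was called (-0.58 ± 0.06, adjusted p = 6.24e-08, against 0.06 ± 0.06 with siANKRD10-1, adjusted p = 0.576). TGFB2 had 31, 35.2 and 37 CPM with siANKRD10-2, 54, 50.5 and 47.2 CPM with siANKRD10-1 and 46.6, 47.4 and 46.6 CPM with siNC. It too was low with siANKRD10-2 alone (-0.44 ± 0.07, adjusted p = 6.21e-06), with 0.11 ± 0.06 for siANKRD10-1 (adjusted p = 0.306).

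INHBA rose with both siRNAs. It had 228, 225 and 228 CPM with siANKRD10-2 and 218, 247 and 211 CPM with siANKRD10-1, against 157, 165 and 147 CPM with siNC. All 6 treated libraries lay above the 3 controls, at 0.54 ± 0.05 (adjusted p = 1.42e-08) and 0.53 ± 0.07 (adjusted p = 3.62e-05). BMP4 had 2.94, 3.12 and 3.01 CPM with siANKRD10-2, below 3.89, 3.57 and 3.87 CPM with siNC, but did not pass the test (-0.32 ± 0.16, adjusted p = 0.116), and with siANKRD10-1 it was at -0.02 ± 0.15 (adjusted p = 0.96).

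TGFBR1 went opposite ways with the 2 siRNAs, at 36.8, 33.4 and 32.8 CPM with siANKRD10-2, 52.3, 53.9 and 57 CPM with siANKRD10-1 and 44.1, 42.2 and 44.3 CPM with siNC. None of the 3 groups overlapped. It was lower with siANKRD10-2 (-0.34 ± 0.06, adjusted p = 0.000119) and higher with siANKRD10-1 (0.32 ± 0.06, adjusted p = 0.00198). TGFBR2 lay between 30.7 and 34.6 CPM in all 9 libraries (0 ± 0.07 with siANKRD10-2, adjusted p = 0.997, and 0.06 ± 0.07 with siANKRD10-1, adjusted p = 0.63).

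ID1 fell with both siRNAs, to 24.6, 22.8 and 21.9 CPM with siANKRD10-2 and to 25.5, 22.7 and 28 CPM with siANKRD10-1, from 34.2, 31.7 and 35 CPM with siNC. Every treated library lay below every control library (-0.54 ± 0.07, adjusted p = 8.67e-07, and -0.40 ± 0.08, adjusted p = 0.00225). ID3, between 5.4 and 8.43 CPM, overlapped between groups (-0.11 ± 0.13, adjusted p = 0.554, and -0.15 ± 0.14, adjusted p = 0.553). SMAD3 had 131, 127 and 141 CPM with siANKRD10-2 against 152, 153 and 149 CPM with siNC (-0.19 ± 0.05, adjusted p = 0.00834), a call lost without siANKRD10-2 replicate 2 (-0.16, adjusted p = 0.0675), and 136, 142 and 139 CPM with siANKRD10-1 (-0.12 ± 0.05, adjusted p = 0.154). SMAD7 lay between 3.44 and 4.76 CPM with overlapping groups (-0.10 ± 0.15 with siANKRD10-2 and -0.06 ± 0.14 with siANKRD10-1).

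Compared directly, siANKRD10-2 had lower TGFBR1 (-0.66 ± 0.06, adjusted p = 4.16e-08), TGFB1 (-0.64 ± 0.06, adjusted p = 4.12e-08) and TGFB2 (-0.55 ± 0.07, adjusted p = 2.1e-06) than siANKRD10-1. These were 3 members lower, with 18.8% of 18832 genes, and 0 higher, with 18.2%. INHBA (0.02 ± 0.06, adjusted p = 0.858) and ID1 (-0.13 ± 0.08, adjusted p = 0.21) did not differ past the threshold between the siRNAs, but without siANKRD10-1 replicate 2 ID1 was called lower (-0.21, adjusted p = 0.0374). ANKRD10 itself stood at 46.5, 47.8 and 48 CPM with siANKRD10-2 and 50.1, 46.7 and 46.1 CPM with siANKRD10-1, overlapping.

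Of the 69 pathway genes beyond the members tested in each knockdown, 14 were higher and 19 lower with siANKRD10-2, and 11 higher and 8 lower with siANKRD10-1. Of all genes, 17.6% and 18.7% were higher and lower with siANKRD10-2, and 5.08% and 5.52% with siANKRD10-1. FST had 19.4, 22.2 and 24.4 CPM with siANKRD10-2 and 29.3, 30.8 and 31.7 CPM with siANKRD10-1, against 48.1, 52.4 and 57.2 CPM with siNC (-1.25, adjusted p = 3.15e-12, and -0.78, adjusted p = 9.37e-07). THBS1 went opposite ways, at 119, 117 and 121 CPM with siANKRD10-2 (-0.68, adjusted p = 1.14e-10) and 281, 303 and 272 CPM with siANKRD10-1 (0.58, adjusted p = 2.45e-06), against 195, 193 and 186 CPM with siNC. TGF-beta response genes were 6 higher and 2 lower with siANKRD10-2, and 6 higher and 1 lower with siANKRD10-1, of 12 tested in each. FN1 rose by 0.69 (adjusted p = 2.52e-10) and 0.47 (adjusted p = 9.52e-05). COL4A1, a basement membrane collagen, rose by 0.86 with siANKRD10-2 (adjusted p = 1.89e-11). JUNB fell by 0.51 (adjusted p = 7.67e-06), and LTBP3 rose by 0.74 (adjusted p = 4.59e-10), with siANKRD10-2.

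Among the BMP response genes 1 was higher and 2 lower with siANKRD10-2 and 3 were lower with siANKRD10-1, of 12. Of all genes, 17.6% were higher and 18.7% lower with siANKRD10-2, and 5.08% and 5.52% with siANKRD10-1. With siANKRD10-1 SMAD6 (-0.70, adjusted p = 0.000109) and HEY1 (-0.51, adjusted p = 0.0109) fell along with ID1. SMAD1, a carrier of the BMP signal, was lower there (-0.43, adjusted p = 0.0175) and the type II receptor ACVR2B higher (0.45, adjusted p = 0.00157). The call of HEY1 was lost without siANKRD10-1 replicate 3 (-0.43, adjusted p = 0.0513) or siNC replicate 1 (-0.45, 0.0606), and that of SMAD1 without siANKRD10-1 replicate 1 (-0.40, 0.0858), siNC replicate 1 (-0.43, 0.0552) or siNC replicate 3 (-0.34, 0.0724). With siANKRD10-2 ID4 rose by 0.90 (adjusted p = 0.00106), whereas ID2, at 0.445, 0.833 and 0.92 CPM against 1.79, 1.46 and 1.1 CPM with siNC, fell by 0.98 (adjusted p = 0.0164), a call lost without siANKRD10-2 replicate 1 (-0.72, adjusted p = 0.0942) or siNC replicate 1 (-0.79, 0.0935).

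Over the 6 comparisons with a control, TGFB2 and INHBA were each called higher in 3 and lower in 1, and SMAD3 higher in 2 and lower in 2. TGFBR1 and BMP4 were each called higher in 1 and lower in 2. ID1 was lower in 3 and higher in 0, and ID3 was lower in 2, both of them knockouts. TGFB1 was called once, TGFBR2 once and SMAD7 once. How often other genes were called over the 6 was not counted, and the share of all genes called in each comparison is given above. Since comparisons within an experiment share controls, these counts describe the values above and are not independent of each other.

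Levels between genes were compared only per length, as RPKM (reads per kilobase of exon, scaled to library size), for which the overexpression and knockdown data give exon lengths. With Vector the order was INHBA (36.8 ± 0.624 RPKM, SD, n = 3), ID1 (36.4 ± 3.81), SMAD3 (31.2 ± 0.315), TGFB1 (13.8 ± 0.897), TGFBR1 (6.99 ± 0.321), TGFB2 (5.94 ± 0.17), TGFBR2 (3.87 ± 0.359), ID3 (1.97 ± 0.0576), SMAD7 (1.41 ± 0.235) and BMP4 (1.32 ± 0.326). INHBA and ID1 lay within each other's spread, as did SMAD7 and BMP4. With siNC the order began with ID1 (27.3 ± 1.39 RPKM), INHBA (18.9 ± 1.08), SMAD3 (16.6 ± 0.237) and TGFB1 (16.4 ± 0.912), the last pair within its spread, and ended with BMP4 (1.23 ± 0.0589) and SMAD7 (1.21 ± 0.024). BMP4 and SMAD7 were thus the least abundant of the 10 transcripts per length in both control groups.

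The genes most like each member over the 12 knockout libraries were found by Pearson's r of log2(CPM + 1) among 11198 genes with a mean of at least 5 CPM. The libraries fall into groups that differ in many genes, so high values are common and are given as a description. TGFB2 was most like C15orf48 (r = 0.995), AMIGO2 (0.994) and HEPHL1 (0.989), and TGFBR2 most like MET (0.988), DUSP4 (0.987) and FSTL1 (0.987). SMAD3 was most like SEC61A1 (0.996), EXT2 (0.988) and DUSP6 (0.987), and INHBA most like GPCPD1 (0.971), SERTAD1 (0.969) and APP (0.966). BMP4 was most like EPHA4 (0.994), ZNF224 (0.99) and the urothelial factor GATA3 (0.988), which itself stood at 21.9 CPM in KO1, 32.1 CPM in KO2, 55.9 CPM in WT1 and 54 CPM in WT2. Whether the fall of KRT13 and GATA3 had a part in that of BMP4 was not tested. ID3 was most like LAMB2 (0.989), LYPD1 (0.982) and TEAD3 (0.979), ID1 most like SLCO3A1 (0.972), RGS9 (0.953) and ZNF76 (0.952), and TGFBR1 most like ARHGAP26 (0.97) and KLHL9 (0.964). The closest genes to SMAD7 (NONO, 0.924, RGL2, 0.899, and SRSF4, 0.885) and TGFB1 (NUDT1, 0.823, SEPHS1, 0.821, and C7orf25, 0.786), the members that passed the test in neither knockout, had lower r.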

How the data were processed

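RNA-seq counts of 30 libraries of 5637 cells (10 groups of 3) were analysed. The authors deposited 3 tables of raw read counts per gene, without normalization. The labels name Trimmomatic 0.36, featureCounts of Subread 1.5.1 and GRCh38, and a KC stranded mRNA kit, whereas the paper names a KAPA stranded kit, Cutadapt, Trimmomatic, HISAT2 and StringTie. Genes carry Ensembl identifiers in the knockout table (60612 genes) and symbols in the others (56303) (4 rows are date-like, and CCN2 is listed as CTGF). Every column of counts was mapped to a sample.

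Each comparison was fitted with its own groups only in R 4.3.3 with edgeR 4.0.16, using filterByExpr (minimum count 10, total 15), TMM, the quasi-likelihood test and Benjamini-Hochberg adjustment over all genes tested. CPM are TMM-scaled. The prior count for log2 fold changes was 0.125. With 3 against 3 libraries an exact permutation test cannot go below 0.1, so it was not used. The fit was tested on simulated counts. DESeq2 1.42.0 and other alternatives were run. No pair of libraries within a group agreed within sampling noise.

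The members, lists and tests were chosen with earlier results of these data known. Members are named in every comparison with a control, as are up to 4 other list genes in each direction with the largest changes (adjusted p under 0.05, mean of at least 1 CPM, no overlap) and the 3 genes most like each member. Others are named where a count turns on them, and some genes that meet these rules are not reported here. Gene positions come from the deposited tables (GRCh38; 9 of 10 with the same ends in GENCODE v29, SMAD7 not), exon overlaps from GENCODE v29 and promoters from RefSeq.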

Additional observations from a re-analysis of the deposited data

Results flagged for a closer look

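Between KO1 and KO2, under the same contrast with their own controls, 7 of the 10 members differed by the interaction test of edgeR (log2, KO1 minus KO2, with SE). These were TGFB2 (-1.90 ± 0.08), BMP4 (-0.91 ± 0.17), TGFBR2 (-0.78 ± 0.06), INHBA (-0.71 ± 0.09), SMAD3 (-0.40 ± 0.06), TGFBR1 (0.24 ± 0.07) and ID1 (0.42 ± 0.08). By this test 11.2% of all genes were higher and 12.1% lower. Among the other pathway genes named in the knockouts, ATOH8 (-2.58 ± 0.18, adjusted p = 5.45e-08), FN1 (-2.11 ± 0.06, adjusted p = 1.5e-12), FST (-0.89 ± 0.11, adjusted p = 1.66e-05), ID2 (-0.70 ± 0.21, adjusted p = 0.0223) and HEY1 (1.93 ± 0.14, adjusted p = 8.18e-08) differed. RBPMS itself differed by -0.36 (adjusted p = 0.00672), being lower relative to its control in KO1. According to the paper the knockouts were made with different sgRNAs and expanded from single clones with long passaging. The parts of guide, clone and passage in these differences therefore cannot be told apart, and none was tested. Groups of 3 libraries are too small for a check of single outlying samples.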

How the results depend on the processing

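Of the 39 changes of members called in the 10 comparisons, 34 kept their direction and call under every alternative except a required log2 fold change of at least 1. The other 5 (TGFB2 in KO1, BMP4 and SMAD3 with ANKRD10-2, SMAD3 with siANKRD10-2 and TGFBR1 between the knockouts) kept their direction and lost the call under at least 1 alternative. Requiring a log2 fold change of at least 1 left 1 member in KO1 (BMP4), 1 in KO2 (TGFB2), 1 in the difference between them (TGFB2) and 0 in ANKRD10-2, siANKRD10-1, siANKRD10-2, ANKRD10-2 against ANKRD10-1, siANKRD10-2 against siANKRD10-1 and WT2 against WT1. Genes called over all genes then were 1149 in KO1, 1095 in KO2, 1059 in the difference, 80 with ANKRD10-1, 241 with ANKRD10-2, 69 with siANKRD10-1, 500 with siANKRD10-2, 72 in ANKRD10-2 against ANKRD10-1, 514 in siANKRD10-2 against siANKRD10-1 and 16 in WT2 against WT1. With DESeq2 WT2 against WT1 had 4 members called and 690 genes instead of 226, and without the filter on low counts 88, where ANKRD10-1 had 1 member called. The cause was not tested.

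Leaving out 1 library at a time gave 0 to 1 members called with ANKRD10-1 and 2 to 4 with ANKRD10-2. All genes called ranged from 700 to 1549 with ANKRD10-1, 2617 to 3533 with ANKRD10-2, 949 to 2430 with siANKRD10-1, 694 to 1396 in ANKRD10-2 against ANKRD10-1 and 71 to 133 in WT2 against WT1. No called member reversed under any alternative. The 43 reversals were of values near 0 that did not pass the test. With all 6 WT libraries as the control, TGFB1 in KO1 was 0.03, ID1 in KO1 -0.06 and SMAD7 in KO2 0.10. TGFBR2 with siANKRD10-2 was 0.001 with DESeq2 and with RLE size factors and 0.004 without the filter. Leaving out 1 library, values that crossed 0 ranged from -0.18 to 0.09 (TGFB1, KO1), -0.12 to 0.01 (SMAD7, KO1), -0.01 to 0.04 (ID1, KO1), -0.11 to 0.03 (SMAD7, KO2), -0.10 to 0.04 (SMAD7, difference between the knockouts), -0.07 to 0.05 (TGFBR2, ANKRD10-1), -0.01 to 0.24 (SMAD7, ANKRD10-1), -0.05 to 0.09 (ID1, ANKRD10-1), -0.06 to 0.12 (ID3, ANKRD10-2), -0.12 to 0.01 (SMAD7, siANKRD10-1), -0.15 to 0.06 (BMP4, siANKRD10-1), -0.03 to 0.04 (TGFBR2, siANKRD10-2), -0.21 to 0.02 (SMAD7, siANKRD10-2), -0.10 to 0.01 (INHBA, ANKRD10-2 against ANKRD10-1), -0.14 to 0.04 (ID3, the same), -0.15 to 0.08 (SMAD7, siANKRD10-2 against siANKRD10-1), -0.04 to 0.08 (INHBA, the same), -0.10 to 0.15 (ID3, the same) and -0.06 to 0.01 (TGFBR1, WT2 against WT1).

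Whether the replicate numbers pair the libraries cannot be told from the data. In no comparison were all 3 correlations of same-numbered libraries over 0.1. They were 0.08, 0.17 and 0.2 in ANKRD10-2 against Vector and 0.1, 0.1 and 0.07 in KO2 against WT2. With the replicate block the members called were 5 in KO1, 8 in KO2 and 6 with ANKRD10-2. INHBA (-0.17, adjusted p = 0.0164) and ID1 (-0.18, adjusted p = 0.043) were the members added with ANKRD10-2. All genes called were then 6082 of 17865 in KO1, 7084 of 18267 in KO2 and 4766 of 20177 with ANKRD10-2. Without the block they were 6454, 7034 and 4017. Every library matched its own number best in KO2 against WT2 and in ANKRD10-2 against Vector, a hint from the data only. CPM without TMM scaling moved 10 of 100 group means of members by more than 1 SD. The SE of members reached 0.17 (BMP4, difference between the knockouts).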
